A study of Drosophila melanogaster with 11 samples.

Results

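The transcripts described here were the 300 of 15433 on a Drosophila melanogaster array that had the highest mean log2 signal in input RNA of early embryos. They were selected on the mean of the 3 input arrays alone, with no use of the RIP arrays. Their mean input signals, which are therefore a description, ran between 12.99 and 15.97, with a median of 14.26. The limit fell in a dense part of the ranking: the 3 transcripts just inside it had input means of 12.9912, 12.9878 and 12.9865, and the 3 just outside it had 12.9773, 12.969 and 12.9681. Of the 300, 277 were among the 300 highest on each of the 3 input arrays taken singly. Signal also depends on the probes of a transcript, so these are ranks of array signal and not of molecules.

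Smaug is an RNA-binding protein of the early fly embryo that recognises stem-loop elements in maternally supplied mRNAs. It represses the translation of bound mRNAs and recruits the machinery that removes their poly(A) tails. In RIP-Chip, an antibody pulls the protein down from an extract, and the RNA that comes with it is hybridised to an array. The same procedure with non-immune serum gives the RNA that adheres to beads and antibody without Smaug, and abundant mRNAs can be carried along in this way.

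The comparison asked which mRNAs were more abundant in RNA pulled down with guinea pig anti-Smaug antibody (Smaug RIPs) than with normal guinea pig serum (control RIPs), both on Protein A beads. All groups were wild-type embryos, labelled Oregon-R, collected 0 to 3 h after egg laying at 25 °C, whereas the study's methods name another wild-type stock, w1118. Whole embryos of mixed ages and cell types were pooled in each extract, and no group lacked Smaug. Smaug RIPs and control RIPs had 3 biological replicates each, with 1 technical repeat array (1a and 1b) of replicate 1 in each group, and the input was 1 pooled total RNA hybridised on 3 arrays, as the series' design text and the labels have it. A footnote of the study calls its numbered replicates biological and makes no exception for the input. In bulk extracts, fewer cells that hold a transcript and less of it per cell cannot be told apart.

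The starts of the recorded image names, taken here to mark slides, gave 4 slides, each of which held both RIPs. The slide of replicate 2 also held the inputs, and a single array carried both RIPs of replicate 3, one in each channel. Smaug RIP arrays were all labelled with Cy5. Control RIP arrays 1a and 2 carried Cy5, and 1b and 3 carried Cy3, as did the inputs. Median signals over all transcripts lay between 7.27 and 7.35 on the RIP arrays. The upper ends differed more: 95th percentiles lay between 8.75 (control RIP 3) and 9.54 (Smaug RIP 1a).

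Few of the identifiers could be named. Of the 15433 transcript identifiers, 44 had an entry in the gene table used, and 17 of these belonged to a single gene. Among the 300 abundant transcripts, 3 had an entry. FBtr0082871 is a transcript of rdx (roadkill), which encodes a BTB-domain adaptor of a Cullin-3 ubiquitin ligase. FBtr0082962 is a transcript of His4r, which encodes histone H4 from polyadenylated mRNA outside the replication-dependent histone cluster. FBtr0071140 is listed under both CG45089 and ND-MNLL, so it was given no single gene. Of 18 gene lists, from ribosomal proteins to germ plasm regulators, none therefore had more than 1 matched abundant transcript, and the markers of maternal, zygotic and follicle cell RNA could not be read.

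The abundant transcripts stood far above the rest in both kinds of RIP. Their median log2 signals were 11.44, 11.64 and 11.55 in Smaug RIPs 1, 2 and 3, against 11.92, 11.98 and 10.58 in control RIPs 1, 2 and 3. The other 7416 transcripts above the input median of 6.85 had medians of 7.73, 7.52 and 7.51 in Smaug RIPs, against 7.66, 7.50 and 7.42 in control RIPs. Over the 3 replicates, the medians of the abundant transcripts averaged 11.55 ± 0.10 for Smaug RIPs and 11.49 ± 0.79 for control RIPs (SD, n = 3 each). Control RIP 3 was the low one of the 6. Transcripts at input ranks 301 to 600 already lay lower, with medians of 8.84 in the mean Smaug RIP and 8.89 in the mean control RIP.

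**Figure D1:**
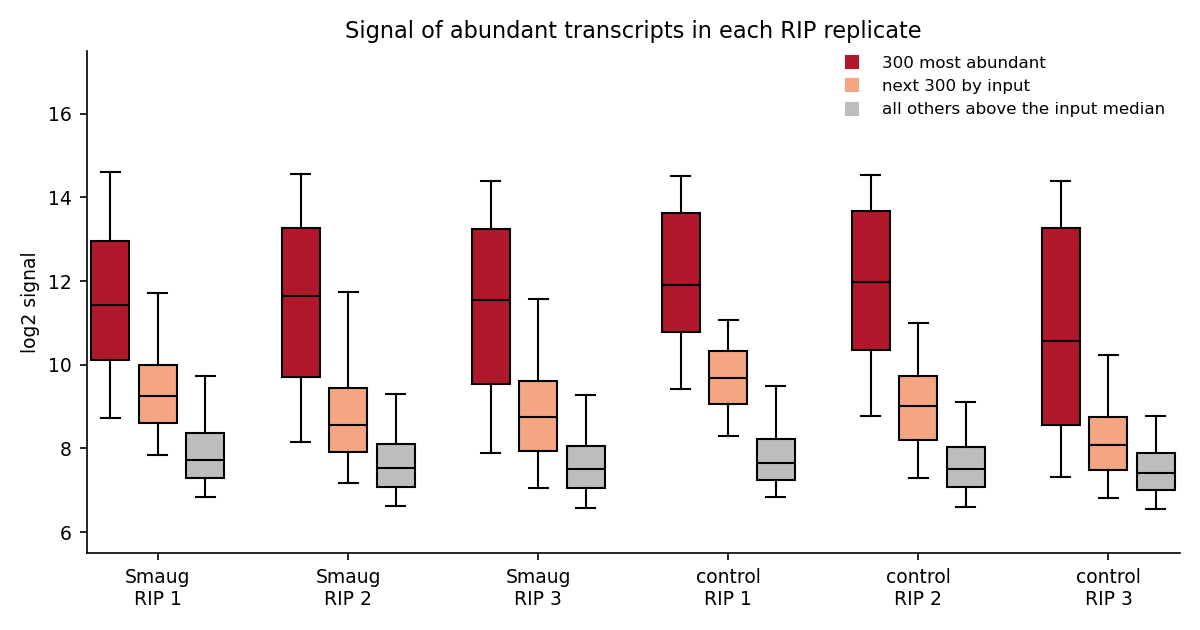
Log2 signal (y axis) in each replicate of Smaug RIP and control RIP (x axis) for the 300 most abundant transcripts, those at input ranks 301 to 600, and all others above the input median, which include the ranks 301 to 600. Boxes show quartiles and median and whiskers the 5th and 95th percentiles over transcripts; the abundant set has medians between 10.58 and 11.98 and the others between 7.42 and 7.73.

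High input did not mean a uniformly high RIP signal. The abundant transcripts covered 7.30 to 15.58 in the mean Smaug RIP and 7.91 to 15.46 in the mean control RIP. Their interquartile range was 3.41 for the mean Smaug RIP and 3.61 for the mean control RIP, against 1.74 for the input. In control RIP 3 it was 4.70, the widest of the 6 replicates, against 2.83 in control RIP 1 and 3.32 in control RIP 2. At the low end, 14 of the 300 had mean signals under 9 in both RIPs although their input means lay between 13.03 and 14.32.

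The signal in both RIPs followed the input order within the 300. Spearman's rho between input and RIP signal across these transcripts was 0.68, 0.72 and 0.74 in Smaug RIPs 1, 2 and 3, against 0.80, 0.82 and 0.74 in control RIPs 1, 2 and 3. These are descriptions across transcripts, which are not independent, and the input of ranks 1 to 50 spanned only 15.55 to 15.97. Transcripts at input ranks 1 to 50 had medians of 13.75 in the mean Smaug RIP and 14.12 in the mean control RIP. Those at ranks 251 to 300 had 9.33 in the mean Smaug RIP and 9.47 in the mean control RIP. The highest inputs lay close to the maxima of the input arrays, 15.98, 15.99 and 15.96, so their order and spacing may be compressed; saturation was not tested.

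Set against the input, which chose the transcripts, both RIPs were lower for nearly every abundant transcript. The median of Smaug RIP minus input was -2.70 (range -6.12 to 0.36), and 4 transcripts had a higher mean in the Smaug RIPs than in the input. The median of control RIP minus input was -2.80 (range -5.88 to -0.51), and 0 transcripts were above the input. Over all 7716 transcripts above the input median, 10.9% were above the input in the Smaug RIPs and 9.09% in the control RIPs. Input ranks 301 to 600 had lower medians, -3.58 (Smaug RIP) and -3.51 (control RIP), so lying under the input was not particular to the abundant set. Both differences from the input use the same input arrays. The sources used here do not say whether RIP and input arrays were normalised as a single batch. Their sizes are therefore relative positions on the arrays and not recoveries.

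The highest signals of the control RIPs were drawn more from the abundant set than those of the Smaug RIPs. Of the 300 highest transcripts in the mean Smaug RIP, 201 (67%) were among the 300 highest in the input, against 230 (76.7%) in the mean control RIP. The replicates gave 189, 191 and 196 in Smaug RIPs, against 236, 232 and 184 in control RIPs, so that control RIP 3 fell below all 3 Smaug RIPs and the groups overlapped. Of the abundant transcripts, 191 were in the top 300 of both mean RIPs, 10 of the Smaug RIP alone, 39 of the control RIP alone, and 60 of neither. By another measure, 197 exceeded the 95th percentile of the array in every replicate of both RIPs. A further 28 did so in every Smaug RIP but not every control RIP, 13 in every control RIP but not every Smaug RIP, and 62 in neither full set. Over all 7716 transcripts above the input median the same counts were 247, 203, 63 and 7203. The lean to the Smaug RIPs was thus not particular to the abundant set.

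The difference between the RIPs used none of the input signals that chose the transcripts, although inputs 1 and 2 were the other channels of the arrays of Smaug RIP 2 and control RIP 2. Of the 300, 291 were also in the top 300 of input 3, which shared no array with a RIP, so a choice on that input could not test this. On balance the abundant transcripts were lower in the Smaug RIPs than in the control RIPs, but this held in 2 of the 3 replicates only. Their median log2 difference (Smaug RIP minus control RIP) was -0.36, with an SD of 0.59 between the 3 replicate medians, and 103 of 300 (34.3%) were above 0. The other transcripts had a median of 0.05, with 53.8% above 0. The SD over replicates exceeds the median of the abundant set, so its offset from 0 was not larger than the replicate spread.

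The replicates differed in sign. Within replicate 1 the abundant transcripts had a median difference of -0.82, within replicate 2 of -0.61, and within replicate 3 of 0.30. The other transcripts had 0.03, 0.01 and 0.11 in the same replicates. Input ranks 301 to 600 had -0.45, -0.42 and 0.53, so the change of sign was not particular to the abundant set. On slide 1a, where both RIPs carried Cy5, the median of the abundant set was -0.56, and on slide 1b, where the control carried Cy3, it was -0.69. The dye pair of slide 1b was that of slide 3, where the sign was positive. With dye as a covariate the median was -0.60, and with the Cy5 arrays alone, which leave out control RIP 3, it was -0.53. Control RIPs 1b and 3 were the only RIP arrays with Cy3, so these fits cannot fully separate dye from control RIP 3. The part of the dye, the slide and the shared array in replicate 3 was not tested. Counted by transcript, 98 of the 300 (32.7%) were lower in the Smaug RIP on all 4 slides and 57 (19%) were higher on all 4, against 7.28% and 13.5% of the other transcripts.

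**Figure D2:**
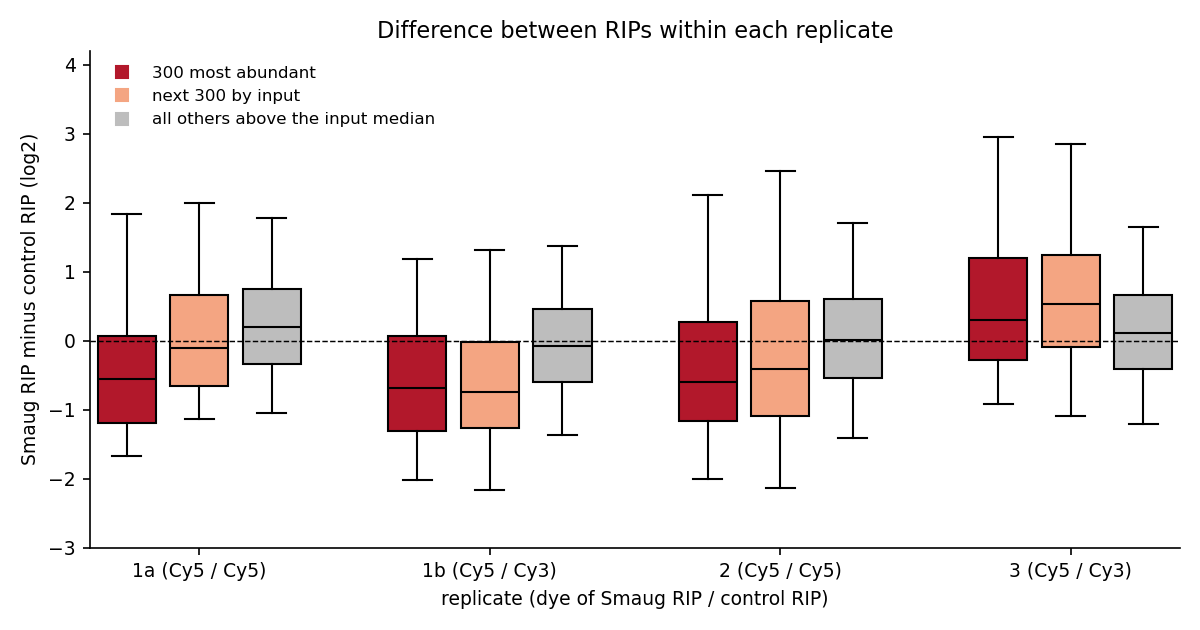
Difference between Smaug RIP and control RIP in log2 units (y axis) on each of the 4 slides (x axis, with the dye of each RIP), for the 300 most abundant transcripts, input ranks 301 to 600, and all others above the input median, which include the ranks 301 to 600. Boxes show quartiles and median and whiskers the 5th and 95th percentiles; the abundant set lies mostly under 0 on 1a, 1b and 2 (medians -0.56, -0.69 and -0.61) and mostly above 0 on 3 (median 0.30).

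The negative offset was spread over the whole abundant range. The median difference was -0.42 at input ranks 1 to 50, -0.56 at ranks 51 to 100, -0.35 at ranks 101 to 150, -0.24 at ranks 151 to 200, -0.23 at ranks 201 to 250 and -0.36 at ranks 251 to 300. It was -0.13 at ranks 301 to 600, -0.01 at ranks 601 to 1200, 0.02 at ranks 1201 to 2400 and 0.06 below that. In replicate 3 the 100 highest stayed close to 0, with medians of -0.09 and -0.13 in the first pair of groups, and the 4 groups below them had 0.22, 0.85, 0.67 and 0.57.

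The spread between transcripts widened below the top. The SD of the difference over transcripts was 0.61 at ranks 1 to 50, 0.78 at ranks 51 to 100 and 1.26 at ranks 151 to 200. For the abundant set as a whole it was 0.98, against 0.62 for the other transcripts. It was 0.94 at ranks 301 to 600 and 0.90 at ranks 601 to 1200, so the wide spread was not particular to the abundant set. At least 2-fold higher means in the Smaug RIPs were found for 37 of the 300 (12.3%), where 7.18% of the 7716 transcripts above the input median had them. At least 2-fold lower means were found for 40 (13.3%), where 2.37% of the 7716 had them. The next 300 by input had 47 at least 2-fold higher (15.7%) and 28 at least 2-fold lower (9.33%), so the share of 2-fold higher means was not particular to the abundant set.

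**Figure D3:**
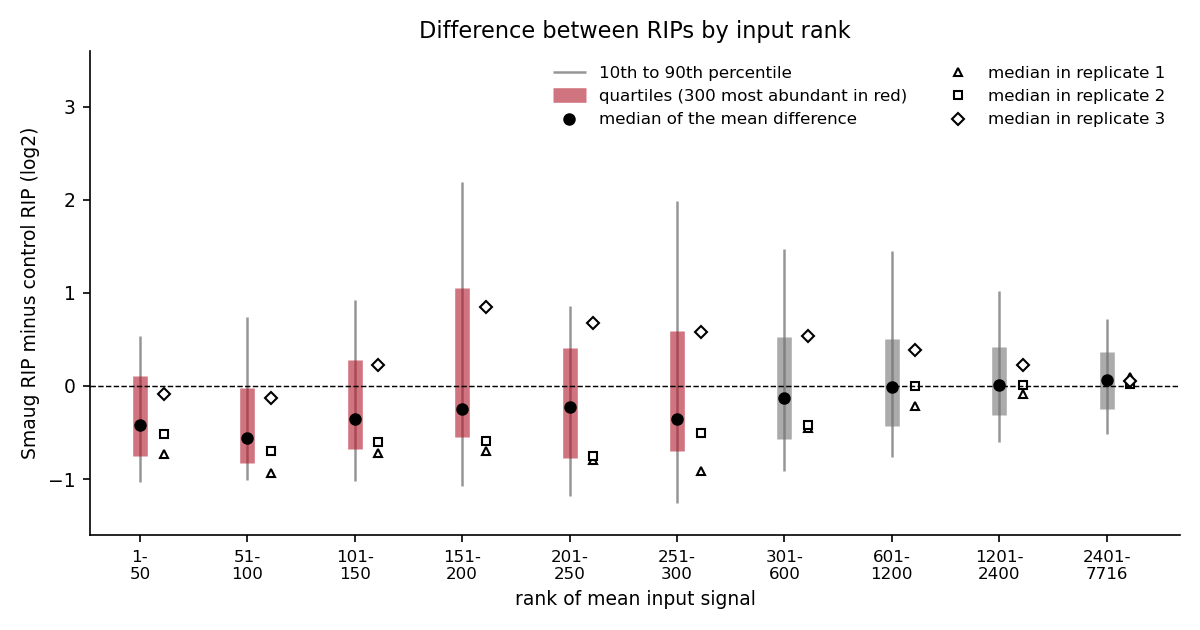
Difference between Smaug RIP and control RIP in log2 units (y axis) by rank of the mean input signal (x axis, highest left). Black points are medians of the mean difference over 3 replicates, thick bars quartiles, thin lines the 10th to 90th percentiles and open symbols the medians within each replicate; medians lie between -0.56 and -0.23 in the 6 groups of the abundant set, and replicate 3 lies above the other replicates in all 6.

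Tested across the 7716 transcripts with limma, 17 of the 300 (5.67%) were higher in the Smaug RIPs at a Benjamini-Hochberg adjusted p under 0.05, where 1.06% of all tested were. Of the abundant set, 0 were lower, where 0.0259% of all tested were; at an unadjusted p under 0.05, 50 were lower (2.63% of all tested) and 43 higher (7.1%). By limma the next 300 transcripts by input had 8 higher and 0 lower. SAM, the kind of test named in the study's methods, called 19 of the abundant set and 18 of the next 300 higher with the 3 replicates (2.76% of all tested), and 26 and 21 with 4 arrays a group (4.47%). SAM called 0 of all 7716 lower in both versions. The replicate values did not overlap for 39 abundant transcripts (13%) with the Smaug RIPs above and 51 (17%) with the Smaug RIPs below, where 8.72% and 4.74% of all tested did so.

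Each slide held both RIPs, so the fit was also made with the replicate number as a block. This called 33 of the 300 higher, where 2.45% of all tested were, and 21 lower, where 0.376% were. Of the next 300 by input it called 18 higher (6%) and 0 lower. The 17 were all among the 33. Fitted with the 4 slides as blocks and 1a and 1b as separate samples, a fit added after the data were seen, 34 were higher (4.25% of all tested) and 54 lower (0.933%). That fit counts the technical arrays 1a and 1b as if they were replicates. Counting them so without a slide block gave 5 lower, of 10 over all tested. The count of lower transcripts therefore rests on how the slides and the technical arrays are treated. It also rests on replicate 3: without it, 28 were higher (1.68% of all tested) and 41 lower (0.635%). With the Cy5 arrays alone 19 were higher (1.49%) and 17 lower (0.415%), and with dye as a covariate 9 were higher (0.518%) and 2 lower (0.0648%). Few transcripts of any kind were called without replicate 2, where 0 of the abundant set and 0.013% of all tested were higher, or without Smaug RIP replicate 2 alone, where 2 of the set and 0.0518% of all tested were.

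The 17 called transcripts were higher in the Smaug RIP on each of the 4 slides and their replicates did not overlap. Both traits largely follow from a call made on the same values, and slides 1a and 1b repeat replicate 1. Their differences ran between 0.71 and 3.70 with a median of 2.33, or 1.63-fold to 13.0-fold with a median of 5.04-fold, and 15 were over 2-fold. Their Smaug RIP means lay between 11.82 and 15.58, and their control RIP means between 8.19 and 14.87. They were found along the whole input range, at ranks 9 to 280 (median 165), and in 3 of them the Smaug RIP mean exceeded the input mean.

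The 21 transcripts called lower with the block had differences between -2.07 and -0.65 with a median of -1.01, and 12 of them were under -1. They lay near the top of the input, at a median rank of 48, with 17 of them among the 100 highest. In all 21 the Smaug RIP was lower on each of the 4 slides, and in 16 the replicates did not overlap. Here too the call used the same values, so these counts are no separate evidence. Without the block their adjusted p ran between 0.0632 and 0.282 (limma).

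**Figure D4:**
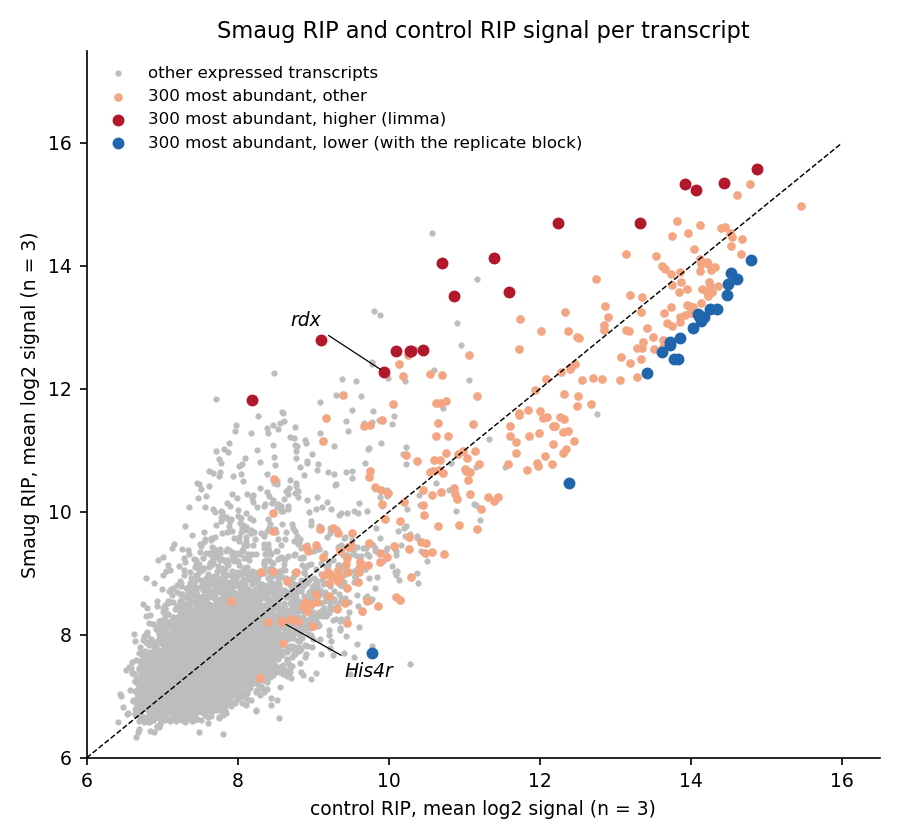
Mean log2 signal over 3 replicates in the Smaug RIPs (y axis) and the control RIPs (x axis), 1 point per transcript above the input median, with the line of equality dashed. Red points are the 17 abundant transcripts called higher, blue points the 21 called lower with the replicate block and not without it, and light points the rest of the 300; most blue points lie along the upper right edge, and the red ones lie above the line over control RIP signals of 8.19 to 14.87.

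Among the transcripts with a gene name, rdx was the one called. FBtr0082871, at input rank 187, had input signals of 13.66, 13.81 and 13.92. It had 12.45, 12.11 and 12.28 in the Smaug RIPs, against 10.52, 10.36 and 8.93 in the control RIPs. All 3 Smaug RIP values lay above all 3 control values, and the low control value was that of replicate 3. The difference was 2.34 (SE 0.63), or 5.08-fold, with an adjusted p of 0.0417 by limma and 0.00278 with the block. The slides gave differences of 2.91 on 1a, 0.96 on 1b, 1.75 on 2 and 3.35 on 3. The difference was positive in each of 21 alternatives but passed the test in 13 of them; leaving out replicate 2 gave an adjusted p of 0.999 and leaving out replicate 1 gave 0.251, and the range over the alternatives that lost the call was 0.0940 to 0.999.

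His4r was the lowest of all 300 in the Smaug RIPs relative to its input. FBtr0082962, at input rank 146, had input signals of 14.33, 14.28 and 14.36. It had 8.58, 8.36 and 7.68 in the Smaug RIPs, against 8.76, 8.79 and 8.22 in the control RIPs. Its mean minus the input mean was -6.12 in the Smaug RIPs and -5.73 in the control RIPs, where 4 abundant transcripts had lower values. The replicates of the 2 RIPs overlapped, and the difference of -0.39 (SE 0.59) had an adjusted p of 0.932 by limma. Probe sequences were not used here, so hybridisation of other histone H4 transcripts to these 4 probes was not tested.

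FBtr0071140, at input rank 272, had input signals of 13.20, 13.18 and 13.14. It had 10.02, 9.36 and 9.15 in the Smaug RIPs, against 11.40, 11.36 and 8.54 in the control RIPs. Control RIP 3 lay below all 3 Smaug RIPs and the other control RIPs lay above them. The differences were -1.57 on slide 1a, -1.19 on 1b and -1.99 on 2, but 0.61 on 3. The mean difference of -0.92 (SE 0.73) had an adjusted p of 0.804 by limma. It followed the pattern of the whole set, with the sign of replicate 3 opposed to that of the other slides.

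The largest differences belonged to transcripts with no gene name in the table used. FBtr0070044 had 12.27, 13.74 and 12.38 in the Smaug RIPs, against 10.52, 8.31 and 8.46 in the control RIPs, and 13.71, 13.56 and 13.63 in the input. The difference was 3.70 (SE 0.67, adjusted p = 0.000577 by limma), or 13.0-fold, and the 13.74 of Smaug RIP 2 lay above all 3 inputs. Only 1 probe stood behind it. Without Smaug RIP replicate 2 it was 3.23 with an adjusted p of 0.119, and the other alternative that lost the call was leaving out replicate 2 (adjusted p = 0.999).

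FBtr0076549 had 11.96, 12.96 and 10.53 in the Smaug RIPs, against 9.53, 8.02 and 7.02 in the control RIPs. Its input signals were 13.96, 14.06 and 14.19. The groups did not overlap, although the values of both were widely spread. The difference was 3.63 (SE 0.73, adjusted p = 0.00292 by limma). Control RIP 3 lay under the median of all transcripts on its array (7.35), so no fold is given for this transcript; it was the one of the 17 with a control replicate under that median. The call was lost without replicate 2 (adjusted p = 0.999), without Smaug RIP replicate 1 (0.0755) and without Smaug RIP replicate 2 (0.161).

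At the other end, 2 transcripts with the lowest differences were picked after their values were seen. FBtr0078382 had 11.17, 10.27 and 9.95 in the Smaug RIPs, against 12.82, 12.51 and 11.82 in the control RIPs. The groups did not overlap. The difference was -1.92 (SE 0.60), with an adjusted p of 0.115 by limma and 0.00780 with the block. FBtr0070125 had 8.65, 7.35 and 7.10 in the Smaug RIPs, against 9.66, 8.87 and 10.79 in the control RIPs. It had the lowest difference of the 300, -2.07 (SE 0.65), with an adjusted p of 0.117 by limma and 0.0282 with the block, and it rested on 2 probes. Smaug RIPs 2 and 3 were close to or under the medians of all transcripts on their arrays (7.32 and 7.33), so the size of this difference is uncertain.

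The transcript with the highest input, FBtr0100231, stood at 14.84, 14.80 and 15.31 in the Smaug RIPs, against 15.38, 15.73 and 15.27 in the control RIPs. Its input signals were 15.98, 15.99 and 15.95. Smaug RIP 3 lay just above control RIP 3 and so the groups overlapped, and the difference of -0.48 (SE 0.18) had an adjusted p of 0.250 by limma. Without replicate 3 the difference was -0.74 with an adjusted p of 0.000280.

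**Figure D5:**
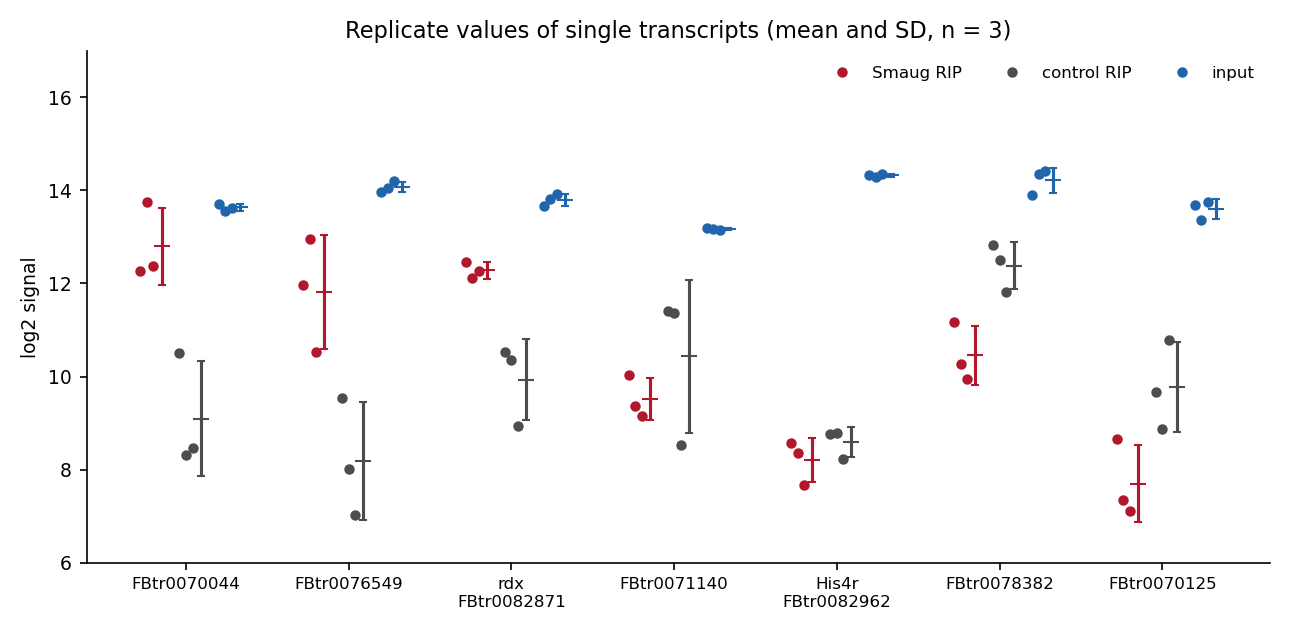
Log2 signal (y axis) of 7 abundant transcripts (x axis) in 3 Smaug RIPs, 3 control RIPs and 3 inputs, with 1 point per replicate and the mean and SD beside the points. In FBtr0070044, FBtr0076549 and rdx all Smaug RIP points lie above all control RIP points, in FBtr0078382 and FBtr0070125 all lie below, and FBtr0071140 and His4r overlap.

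The median SD over the 3 input arrays was 0.10 for the abundant transcripts and 0.24 for the others, a value that signals near the array maximum can lower. In the RIPs, whose replicates were biological, the abundant transcripts had median replicate SDs of 0.46 (Smaug RIPs) and 0.68 (control RIPs), against 0.46 and 0.49 for the others. Input ranks 301 to 600 had 0.59 and 0.91, so the raised control value was not particular to the abundant set. Technical arrays 1a and 1b of the abundant set differed by a median of 0.45 (Smaug RIP) and 0.39 (control RIP). Across the abundant transcripts the replicates of 1 group correlated at 0.88 to 0.95. Smaug RIP replicates correlated with control RIP replicates at 0.777 to 0.875, so much of this correlation was shared by both groups. The abundant transcripts had fewer probes: 86 of 300 (28.7%) had 5, against 59.8% of the others, and 24 (8%) had 1, against 2.01%.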

How the data were processed

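RNA of 0 to 3 h embryos was measured on NimbleGen arrays with 11 hybridisations: 4 Smaug RIP, 4 control RIP and 3 input. cDNA was primed with anchored oligo(dT). The authors summarised probes to transcripts by RMA with quantile normalisation; the deposited input files give log2 signals, and the deposited RIP files give linear intensity, of which log2 was taken here. A deposited score, the standard error of each signal, was not used; the deposited number of probe pairs was. Software versions are not given in the sources used here.

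Arrays 1a and 1b were averaged on the log2 scale. The 7716 transcripts above the median input signal entered 1 fit of 3 Smaug RIPs against 3 control RIPs in limma (version 3.58.1, under R 4.3.3), with moderated variances that follow signal (eBayes trend) and Benjamini-Hochberg adjustment over all 7716; adjusted p under 0.05 was called. Values over the 300 are descriptions. Precision is limited by the number of arrays. The inputs are described with the series as repeats of 1 pool, so their spread was taken as technical.

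The 300 transcripts and the gene lists were chosen with earlier results of these data known. Transcripts were named if in the gene table (RefSeq, Release 6), among the 10 highest inputs, the called or the extremes of the control, and of the unnamed identifiers only those the results turn on; 2 lowest differences were added. Deviations from the group means of same-numbered Smaug and control replicates correlated at 0.31, 0.061 and 0.20 over the 7716, and at 0.63, 0.25 and 0.53 over the 300; the numbers coincide with slides read from image names, and the fit with that block is given where it changes a count. Alternatives were SAM, 4 arrays as separate samples, dye, Cy5 only, quantile normalisation, median centring, other filters, no trend, leaving out replicates and other sizes of the set.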

Additional observations from a re-analysis of the deposited data

How the results depend on the processing

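The count of abundant transcripts higher in the Smaug RIPs was 17, and 33 with the replicate block, 26 with SAM on 4 arrays, 9 with dye as a covariate, 7 of the first 150 transcripts, and 34 with slide as a block and 4 arrays (added after the data were seen); it ran between 0 and 28 when a replicate or 1 RIP was left out. Over all transcripts tested the corresponding counts were 82, 189, 345, 40, 82 and 328, and between 1 and 130. The count lower was 0 of the 2 over all tested, and 21 of 29 with the replicate block, 5 of 10 with 4 arrays as separate samples, 2 of 5 with dye, 17 of 32 with Cy5 arrays alone, 1 of 6 with quantile normalisation, 1 of 5 without the trend and 54 of 72 with slide as a block; leaving out a replicate gave 0 to 41, the highest without replicate 3 (of 49), and 20 without control RIP 3 (of 31). Over the alternatives the median difference of the abundant set lay between -0.73 (without replicate 3) and -0.10 (without control RIP 1). The replicate block, SAM with 3 replicates and the input filters cannot change this median. No alternative used replicate 3 alone, where it was 0.30. The median of the other transcripts turned sign without Smaug RIP replicate 1 (-0.0273) and was 0.14 without control RIP 1. Of 150 transcripts, 114 were in the top 150 of the Smaug RIPs and 125 of the control RIPs; of 600, 344 and 433. The cause of these changes was not tested. Choosing the set on input 3 alone (also added later), which kept 291 of the 300, gave 17 higher and a median of -0.35. With 3 replicates a group, low counts of calls say nothing about transcripts that fell short of the threshold.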
